A study of Mus musculus with 8 samples.

Results

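The constitutive intergenic regions are stretches of open chromatin that were called in every library of the series and lie outside protein-coding genes. They were chosen by merging the ATAC-seq peaks of all 8 libraries wherever peaks shared at least 1 bp, which gave 52251 regions. Kept were those with a peak in all 8 libraries, over 1 kb from both annotated ends of every protein-coding gene, and with their midpoint outside every protein-coding gene span. That left 1129 regions, of 8856 called in all 8 libraries and of 17083 intergenic regions called in any. Another 6036 of the regions called in all 8 lay at gene ends, 1675 lay inside genes away from the ends, and 16 lay on unplaced scaffolds and were not used here.

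The libraries came from hippocampal microglia of mice at 3 weeks after birth, with 4 libraries labelled FGR (fetal growth restriction) and 4 labelled Ctrl. Both groups carried 1 copy of the reporter allele Tmem119-tdTomato (Tmem119-tdTomato+/-), which marks microglia through a gene they express. How growth was restricted, the sex of the mice, and whether each library came from a separate animal are not stated in the labels. The p-values thus measure only the spread between these libraries, averaged into pairs as given below, with the variance shared over regions. They do not measure the spread of 1 region's libraries alone. FGR replicates 1 and 3, and 2 and 4, resembled each other more than other libraries did. Replicates 1 and 3, and 2 and 4, of each group were therefore averaged into pairs (n = 2 pairs per group). The Ctrl pairs did not share summits so. Summits were compared in the 938 regions with 1 peak in every library. Of these, 0% had summits at the identical base in Ctrl 1 with 3 and 0.107% in Ctrl 2 with 4. Each Ctrl pair joins 1 of Ctrl 1 and 2, which stood apart, with 1 of Ctrl 3 and 4. An SD or p-value over pairs leaves out the spread within pairs and can be smaller than that between libraries. The series numbers the samples of replicates 1 and 2 of both groups apart from those of replicates 3 and 4. Each pair joins 1 library of each set, and the labels do not say what the sets stand for. The labels do not say whether a pair is 1 sample sequenced or processed again. A statement on all 4 FGR libraries may thus rest on fewer than 4 separate samples.

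ATAC-seq uses a transposase to cut DNA that is not wrapped tightly in nucleosomes. Open regions between genes include enhancers, which are bound by lineage factors such as PU.1 and regulate genes at a distance, CTCF-bound sites, and the promoters of genes that encode no protein. Promoters rich in CpG dinucleotides tend to be open in many cell types, whereas enhancers tend to be open in few. The peak lists cover microglia alone, so none of these regions can be called microglial in kind from these data.

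Some of the regions held the start of a long non-coding RNA (lncRNA) gene, and the sequence around such starts was available. RefSeq windows of 250 bases before to 50 bases after a gene start (GRCm38.p6, the coordinates of mm10) were matched to the regions. Of 1091 constitutive intergenic regions on the chromosomes that the table covers, 112 (10.3%) overlapped a lncRNA window, against 316 of 15381 intergenic regions (2.05%) called in 1 to 7 libraries. A wider region more easily overlaps a window. The median width was 765 bp for regions called in all 8 libraries and 282 bp for those called in 1 to 7. The part of width in this contrast was not tested. Below are 5 of the windows in the 112 regions, chosen after their values were seen to show the range from CpG-rich to CpG-poor starts. Each is given 5′ to 3′ on the strand of the gene, with CG dinucleotides in capitals.
Chaserr: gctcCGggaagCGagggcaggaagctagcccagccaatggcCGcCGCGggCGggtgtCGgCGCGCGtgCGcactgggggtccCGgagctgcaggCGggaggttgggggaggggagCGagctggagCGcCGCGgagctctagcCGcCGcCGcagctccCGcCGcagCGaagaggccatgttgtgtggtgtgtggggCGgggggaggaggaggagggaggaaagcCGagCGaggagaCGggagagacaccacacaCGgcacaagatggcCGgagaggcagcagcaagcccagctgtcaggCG
Snhg8: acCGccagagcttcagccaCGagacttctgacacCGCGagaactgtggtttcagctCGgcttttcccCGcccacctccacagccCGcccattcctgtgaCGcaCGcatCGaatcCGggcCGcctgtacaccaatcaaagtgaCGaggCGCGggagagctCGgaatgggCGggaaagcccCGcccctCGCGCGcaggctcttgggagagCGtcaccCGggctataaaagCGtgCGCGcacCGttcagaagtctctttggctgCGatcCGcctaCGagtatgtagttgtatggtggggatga
1300002E11Rik: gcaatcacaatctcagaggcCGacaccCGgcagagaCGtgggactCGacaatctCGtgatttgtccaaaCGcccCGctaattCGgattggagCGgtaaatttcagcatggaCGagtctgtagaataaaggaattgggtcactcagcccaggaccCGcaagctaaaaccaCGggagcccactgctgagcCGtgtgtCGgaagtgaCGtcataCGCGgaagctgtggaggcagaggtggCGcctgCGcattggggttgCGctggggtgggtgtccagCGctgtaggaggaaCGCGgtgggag
Mir22hg: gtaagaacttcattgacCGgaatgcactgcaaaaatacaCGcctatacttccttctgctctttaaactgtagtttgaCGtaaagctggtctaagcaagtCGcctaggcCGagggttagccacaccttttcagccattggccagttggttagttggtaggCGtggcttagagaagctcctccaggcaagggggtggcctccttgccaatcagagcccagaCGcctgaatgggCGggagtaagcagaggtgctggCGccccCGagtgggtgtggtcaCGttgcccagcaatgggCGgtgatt
Gm45805: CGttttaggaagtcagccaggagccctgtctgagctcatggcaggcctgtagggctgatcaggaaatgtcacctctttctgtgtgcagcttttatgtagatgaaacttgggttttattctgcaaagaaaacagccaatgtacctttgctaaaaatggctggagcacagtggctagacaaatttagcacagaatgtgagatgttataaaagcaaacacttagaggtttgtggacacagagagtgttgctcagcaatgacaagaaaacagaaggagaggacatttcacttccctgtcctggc

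The Chaserr window (chr7:73558346-73558645, minus strand) has a GC content of 72.3% and 30 CG dinucleotides. Chaserr is a lncRNA gene upstream of the chromatin remodeller gene Chd2, whose nearest end was 16049 bp away. Snhg8, a small nucleolar RNA host gene, has a window (chr3:123508287-123508586, minus strand) with 62% GC and likewise 30 CG. The window of 1300002E11Rik (chr16:21794097-21794396, plus strand) has 23 CG and holds the PU.1 letters GGAAGTG, starting at base 197 of the printed window. Mir22hg, the host gene of the microRNA miR-22, has 12 CG (chr11:75461289-75461588, plus strand). Gm45805, 163720 bp from the nearest end of Irf2bp2, has only 1 CG and 44.7% GC (chr8:126758304-126758603, minus strand). These 5 windows thus run from CpG-rich to CpG-poor starts.

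Over all 112 windows the median GC content was 57.3% and the median number of CG dinucleotides 16. The 314 distinct lncRNA windows in intergenic regions called in 1 to 7 libraries had 52% GC and 6 CG, and the 10897 other lncRNA windows had 48% and 4. Protein-coding windows in gene-end regions called in all 8 libraries, of which there were 4611, had 63% and 24. The lncRNA starts in constitutive intergenic regions thus lay between other lncRNA starts and open protein-coding promoters in composition. Of 6 motif strings searched on both strands, the PU.1 letters GGAAGTG were in 14.3% of the 112 windows, in 14% of the lncRNA windows in regions called in 1 to 7 libraries, in 16.4% of the open protein-coding windows and in 11% of all 32851 windows of the table. In the same order of these 4 sets, the AP-1 letters TGANTCA were in 8.04%, 12.4%, 3.30% and 7.81%, and the C/EBP letters TTGCNNAA in 11.6%, 12.7%, 6.94% and 10.8%. The IRF motif was in 3.57%, 2.87%, 2.39% and 3.44%, the SMAD letters CAGACA in 17%, 27.4%, 13.3% and 21%, and the CTCF core letters CCCTC in 63.4%, 69.1%, 76.8% and 66.0%. In the 10897 other lncRNA windows the shares were 8.78% for PU.1, 9.40% for AP-1 and 12.05% for C/EBP. They were 3.66% for IRF, 25.3% for SMAD and 58.4% for the CTCF core. The 112 windows were thus higher than those for PU.1 and the CTCF core, and lower for the other motifs. Matches of different motifs may overlap, and none of these shares was tested.

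Summits lay close to the annotated starts. The median distance between the strongest summit of a region and the lncRNA start was 107.5 bp, and in 86 of the 112 regions it was at most 250 bp. The summit was upstream of the start in 70 regions and downstream in 41. The regions were chosen by overlap with a window that reaches farther upstream than downstream. Closeness and an upstream lean can thus follow from the choice. In the 316 such regions called in 1 to 7 libraries the median was 102.5 bp, with 272 within 250 bp. There 166 summits lay upstream and 148 downstream. Closeness was thus not particular to the constitutive regions, and the lean was not tested. The strongest constitutive intergenic regions with a non-coding gene within 1 kb were those at D130051D11Rik (chr15:85634258-85635378), 1700096K18Rik (chr5:25529321-25530385), 1700113A16Rik (chr3:88177396-88178456), Chaserr and Gm40237 (chr4:118547583-118548915). Each of these regions overlapped an end of the gene named.

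**Figure D1:**
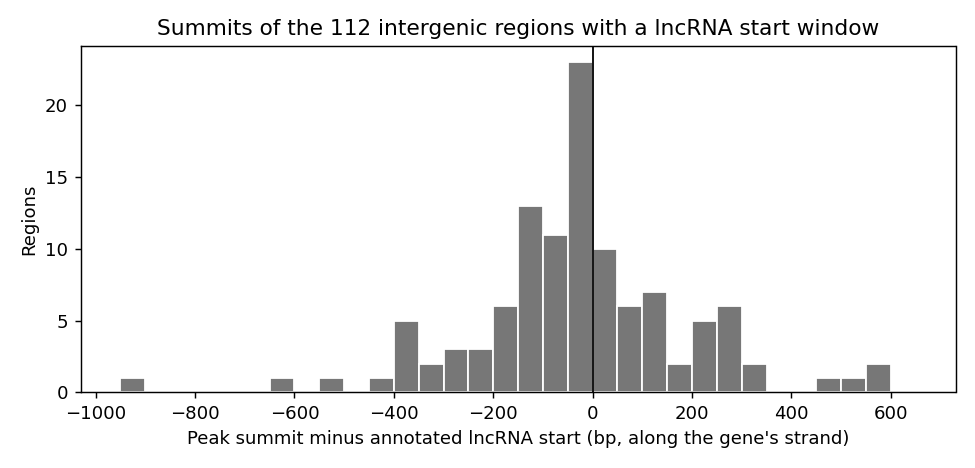
Number of regions (y axis, bins of 50 bp) by the distance from the annotated lncRNA start to the strongest peak summit (x axis, bp along the strand of the gene, negative values upstream), for the 112 constitutive intergenic regions with a lncRNA start window. The median absolute distance is 107.5 bp, and 70 summits lie upstream of the start. The regions were chosen by overlap with a window that reaches farther upstream than downstream.

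Non-coding genes of several kinds lay next to the constitutive intergenic regions. The rule considered protein-coding genes only, and 264 of the 1129 regions (23.4%, exact Clopper-Pearson 95% interval 20.9% to 26.0%) lay within 1 kb of an end of a gene of another kind. The share was 10.5% (9.93% to 11.2%) for the 9751 intergenic regions called in 1 library, 14.9% (12.53% to 17.4%) for the 848 called in 7, and 12.1% for all 15954 called in 1 to 7. Regions called in more libraries were also wider, with a median of 765 bp for those called in all 8 and 240 bp for those called in 1, and a wider region more easily comes within 1 kb of a gene. The part of width in the rise was not tested. lncRNA genes were the nearest such gene for 197 regions (17.4%, against 8.13% of the other intergenic regions), and pseudogenes for 13 (1.15% against 2.03%).

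Genes for transfer RNAs and small nuclear RNAs (snRNAs) were among them. tRNA genes, transcribed by RNA polymerase III, were the nearest non-coding gene within 1 kb for 24 regions (2.13%, against 0.382% of the other intergenic regions). They were spread over 12 chromosomes, with 5 on chromosome 11 and 3 each on chromosomes 1, 7, 13 and 14. snRNA genes were nearest for 11 regions (0.974% against 0.194%). Small nucleolar RNA genes went the other way, nearest for 1 region (0.0886% against 0.790%). Single regions lay at Rn7sk, the RNA that holds back transcription elongation (chr9:78175313-78176276), at Rnu11, an RNA of the minor spliceosome (chr4:132269317-132270550), and at the Y RNA gene Rny1 (chr6:47787988-47788787). Small RNA genes of this type have near-identical copies elsewhere in the genome, and the handling of reads that match several copies was not given in the sources used here.

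**Figure D2:**
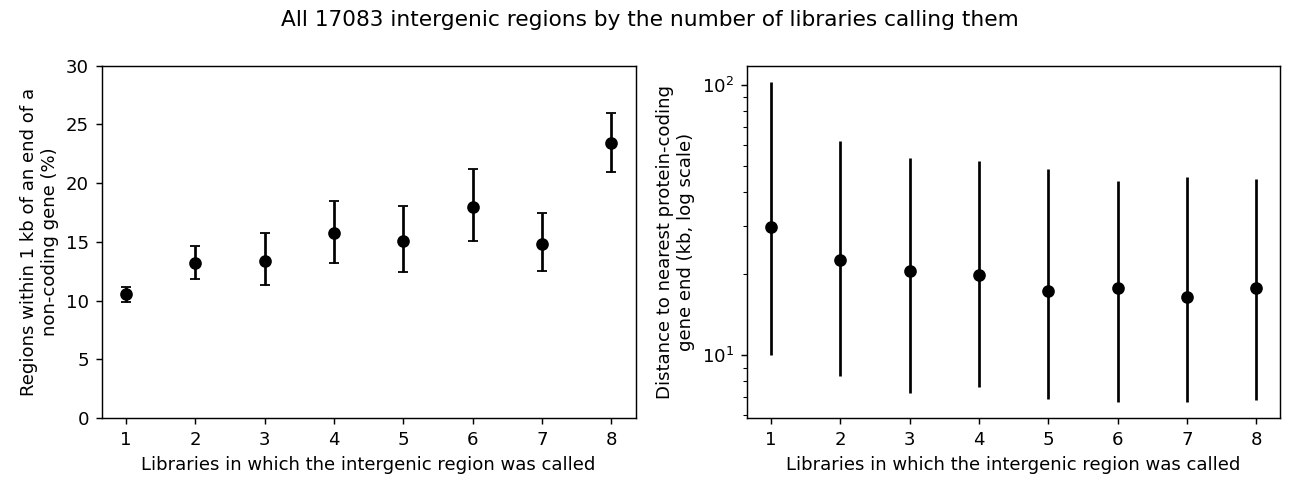
All 17083 intergenic regions by the number of libraries that called them (x axis). Left, the percent within 1 kb of an end of a gene that is not protein-coding, with exact 95% intervals. Right, the median distance in kb (log scale) to the nearest protein-coding gene end, with bars from the 25th to the 75th percentile. The regions called in all 8 libraries have the highest share, 23.4%, and the median distance is 29727 bp for those called in 1 library and 17695 bp for those called in all 8.

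MicroRNA hairpins also lay nearby. Within 5 kb of 12 constitutive intergenic regions (1.10% of 1089 on the chromosomes covered) lay 22 hairpins of the 1005 in the RefSeq table, against 73 of 15371 other intergenic regions (0.475%). The regions called in all 8 libraries were wider than the others, and the part of width here was not tested. These microRNAs were looked up after values were seen. The mature strands below, in RefSeq, belong to hairpins near regions at let-7i, miR-21a, miR-22, miR-142 and the Mir17 to Mir92-1 cluster, all known from myeloid cells or growth control. They are written 5′ to 3′ with the seed, bases 2 to 8, in capitals.
let-7i-5p: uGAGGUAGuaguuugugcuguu
miR-21a-5p: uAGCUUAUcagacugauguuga
miR-22-3p: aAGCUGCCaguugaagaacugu
miR-142a-3p: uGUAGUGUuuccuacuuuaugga
miR-17-5p: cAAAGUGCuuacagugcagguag
miR-20a-5p: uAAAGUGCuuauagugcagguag
miR-19a-3p: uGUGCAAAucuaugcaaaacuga
miR-19b-3p: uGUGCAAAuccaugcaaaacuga

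By seed, miR-17-5p and miR-20a-5p formed one group (AAAGUGC) and miR-19a-3p and miR-19b-3p another (GUGCAAA), all from hairpins beside the same region (chr14:115040286-115042669). That region of 2384 bp, 1002 bp from the Mir17 hairpin, is upstream of a cluster known to promote proliferation. The let-7i hairpin lay inside its region (chr10:122985480-122986588). Mir142, abundant in blood-derived cells, was 1051 bp from its region (chr11:87755253-87755813), and Mir21a was 4621 bp away (chr11:86578841-86579446). The Mir22 hairpin was 1773 bp from the region that holds the start of Mir22hg shown above.

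Strength was compared as a rank. The regions ranked were the 8840 called in all 8 libraries on chromosomes 1 to 19, X and Y. The highest −log10 q of a region's peaks was ranked within each library and expressed as a percentile from 0 to 100. This value is the authors' adjusted significance of a peak over the local background. It depends on the number of reads as well as on the fold. The same 8840 regions were ranked in each library. Near Mir142 the percentile was 53.6, 80.1, 56.7 and 53.5 in FGR 1 to 4, against 40.1, 24.9, 67.1 and 28.5 in Ctrl 1 to 4, with overlapping groups. At the Mir17 cluster it was 25.4, 16.9, 3.21 and 31.2 in FGR and 14.3, 24.98, 15.6 and 13.8 in Ctrl, low in every library. let-7i was low throughout, at 26.6, 7.77, 15.01 and 10.5 in FGR and 5.96, 0.107, 11.5 and 5.05 in Ctrl.

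As a class, the constitutive intergenic regions ranked higher in FGR than in Ctrl libraries. Their median percentile was 44.7, 47.0, 48.5 and 49.9 in FGR 1 to 4, against 37.6, 35.5, 42.2 and 38.0 in Ctrl 1 to 4, so that every FGR library lay above every Ctrl library. The means were 47.6 ± 1.32 in FGR and 38.3 ± 2.22 in Ctrl (SD, n = 2 pairs), a difference of 9.24 percentile points. Regions called in all 8 libraries inside genes differed in the same direction, with 48.3 ± 0.116 in FGR and 41.7 ± 2.17 in Ctrl. Those at gene ends differed the other way, with 51.2 ± 0.342 in FGR and 54.8 ± 0.932 in Ctrl. Ranks over a fixed set must balance, so a higher rank away from gene ends entails a lower one at them. These values describe classes and carry no test.

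**Figure D3:**
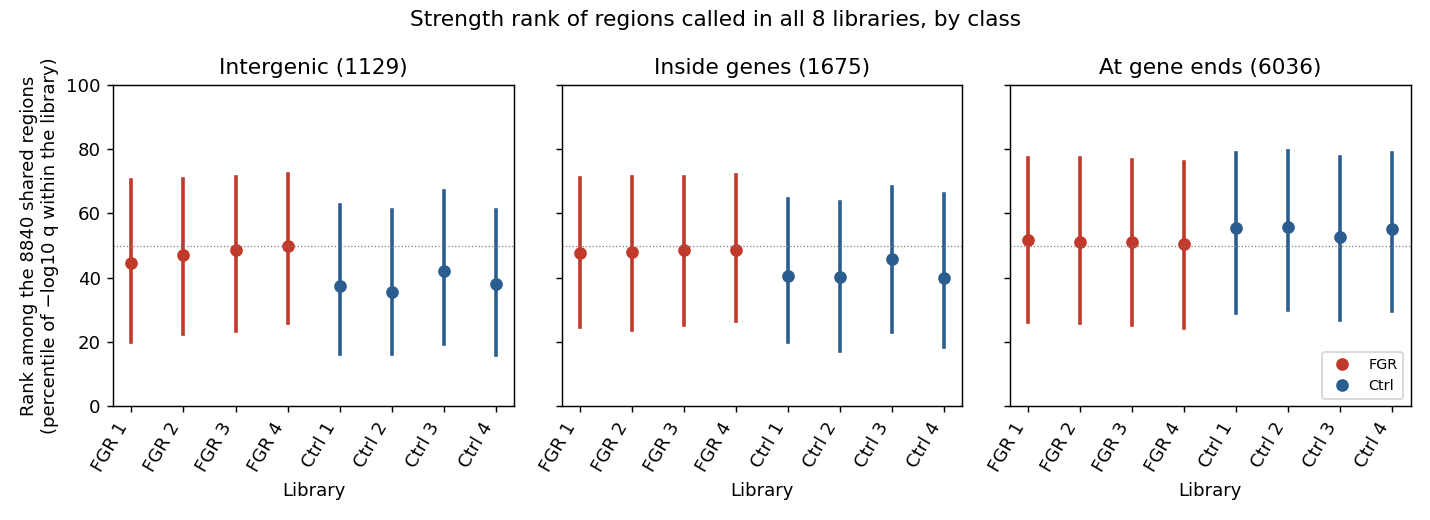
Percentile of −log10 q among the 8840 regions called in all 8 libraries (y axis) in each library (x axis, FGR left of Ctrl), for the 1129 intergenic regions, the 1675 inside genes and the 6036 at gene ends. Points are medians and bars run from the 25th to the 75th percentile. Intergenic medians lie between 44.7 and 49.9 in FGR and between 35.5 and 42.2 in Ctrl.

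Ctrl 1 and Ctrl 2 stood apart in peak shape and list length, and bear on this comparison. Each list held 23327 to 29501 peaks in FGR and 10862 to 24195 in Ctrl, with the fewest in Ctrl 2. Summits were compared in the 938 constitutive intergenic regions with 1 peak in every library. The median summit distance between Ctrl 1 or Ctrl 2 and one of the other 6 libraries was 127.5 to 135 bp. Between Ctrl 1 and Ctrl 2 it was 77.5 bp. It was 15 to 16 bp in FGR 1 with 3 and FGR 2 with 4, and 26 to 32 bp in the other pairs of those 6 libraries. FGR 1 with 3 and FGR 2 with 4 placed 8.64% to 11.1% of summits at the identical base, against 1.71% to 3.30% in the other 13 pairs without Ctrl 1 and 2. Whether Ctrl 1 and 2 were processed with other settings was not given in the sources used here. Against Ctrl 3 and 4 alone, whose mean was 40.1, the FGR mean of 47.6 was higher by 7.49. In replicates 3 and 4 alone, the medians were 48.5 and 49.9 in FGR, against 42.2 and 38.0 in Ctrl. Background coverage, recovered from the authors' values in extended reads per base, was 3.52 to 4.82 in FGR and 3.01 to 6.05 in Ctrl, and its part in the ranks was not tested.

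The unranked values of the constitutive intergenic regions differed less clearly. The median pileup at their summits was 39, 39, 46 and 47 reads in FGR 1 to 4, against 36, 23, 41 and 47 in Ctrl 1 to 4. The authors' fold over the local background had medians of 5.17, 5.25, 5.04 and 5.09 in FGR and 4.07, 4.03, 5.05 and 4.30 in Ctrl. Both quantities overlapped between the groups, through Ctrl 3 and 4 for the pileup and Ctrl 3 for the fold. Median peak width was 496, 471, 533 and 510 bp in FGR and 594, 484, 470 and 519 bp in Ctrl. The share of a library's intergenic peaks that fell in these regions was 16.7%, 21.5%, 14.9% and 18% in FGR and 37.7%, 72.8%, 22.5% and 20.2% in Ctrl. The shortest list, that of Ctrl 2, thus had most of its intergenic peaks among the regions that every library shared, and it sets which regions can be called in all 8.

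The difference in rank was not even over the regions (all 4 classes of distance and both CpG classes were cut after earlier results were known). In the 138 regions over 100 kb from a protein-coding gene end, the median percentile was 50.5, 53.7, 52.1 and 56.7 in FGR 1 to 4, against 39.4, 29.0, 42.7 and 39.7 in Ctrl 1 to 4. The means were 53.3 ± 2.77 in FGR and 37.7 ± 4.75 in Ctrl (SD, n = 2 pairs), a difference of 15.6. It was 10.7 for the 381 regions at 20 to 100 kb, 6.70 for the 419 at 5 to 20 kb and 7.58 for the 191 at 1 to 5 kb. Against Ctrl 3 and 4 alone, the means over 100 kb were 53.3 in FGR and 41.2 in Ctrl. They were 47.5 and 36.7 at 20 to 100 kb, 48.3 and 44.8 at 5 to 20 kb, and 41.6 and 35 at 1 to 5 kb. At 5 to 20 kb the lowest FGR median, 46.8, was barely above the highest Ctrl median, 46.4. All 4 distance classes were thus higher in every FGR than in every Ctrl library.

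At CpG-rich lncRNA starts no such difference was seen. The 57 regions whose lncRNA window had 16 or more CG dinucleotides had a median percentile of 50.4, 45.9, 49.7 and 47.7 in FGR, against 45.5, 51.4, 44.8 and 50.6 in Ctrl. Their means were 48.4 ± 2.31 in FGR and 48.1 ± 4.14 in Ctrl (SD, n = 2 pairs), a difference of 0.318. The 55 with under 16 CG had 47.2 ± 2.198 in FGR and 40.0 ± 0.718 in Ctrl, a difference of 7.27, with every FGR library above every Ctrl library. The 24 regions at tRNA genes were low in both groups, at 28.5 ± 5.77 in FGR and 31.9 ± 7.34 in Ctrl. For the 865 regions over 1 kb from every gene in the table, coding or not, the means were 49.1 ± 1.35 in FGR and 37.8 ± 2.99 in Ctrl, a difference of 11.3. These contrasts between subsets were not tested.

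**Figure D4:**
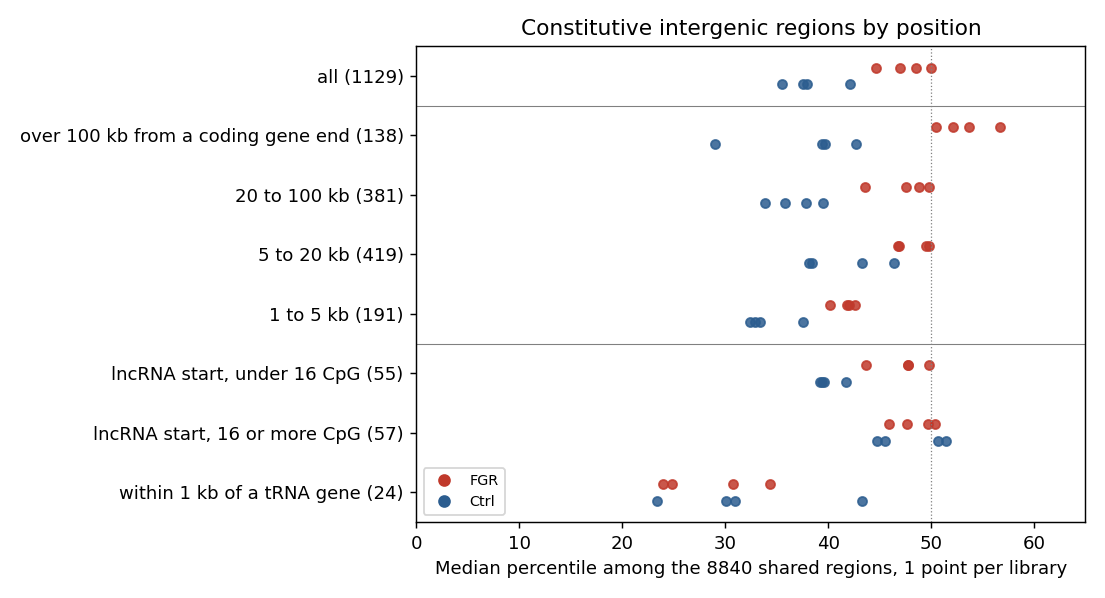
Median percentile among the 8840 shared regions (x axis) for subsets of the constitutive intergenic regions (y axis, number of regions in parentheses), 1 point per library, FGR above Ctrl in each row. The groups are separate in the 4 distance classes and at lncRNA starts with under 16 CG dinucleotides, and overlap at lncRNA starts with 16 or more and at tRNA genes.

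The 5 regions whose windows are printed were chosen after their values were seen and are given as examples only. The Gm45805 region (chr8:126757706-126758530), the CpG-poor one, had percentiles of 96.7, 93.4, 98.4 and 94.5 in FGR, against 86.6, 81.1, 89.4 and 87.6 in Ctrl, with no overlap (limma with Benjamini-Hochberg adjustment, adjusted p = 0.318). Chaserr (chr7:73557795-73559169) had 94.8, 91.7, 98.4 and 89.3 in FGR and 96.5, 99.6, 99.2 and 97.9 in Ctrl, overlapping through FGR 3. Mir22hg, with 12 CG, had 92.1, 89.2, 98.0 and 96.5 in FGR and 90.9, 92.5, 90.7 and 89.5 in Ctrl, overlapping through FGR 1 and 2. Chaserr and Mir22hg were thus among the strongest shared regions in both groups. Snhg8 (chr3:123508007-123509214) was at 66.1, 87.6, 67.6 and 65.6 in FGR and 91.4, 79.4, 74.3 and 50.6 in Ctrl. At 1300002E11Rik (chr16:21793948-21794763) the percentile was 76.2, 77.0, 76.4 and 79.6 in FGR and 86.9, 65.01, 84.1 and 63.2 in Ctrl. Both overlapped, with the Ctrl libraries spread on either side of the FGR ones at 1300002E11Rik.

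Single regions were tested with limma on normal scores of the ranks over all 8840 regions, and 4 constitutive intergenic regions were higher in FGR after Benjamini-Hochberg adjustment (0.354%). Over all 8840 regions 5 were higher (0.0566%) and 0 lower (0%), and none of the intergenic regions was lower. At an unadjusted limma p under 0.05, 156 of the 1129 were higher (13.8%) and 32 lower (2.83%), against 6.5% and 4.8% of all regions. The difference was positive for 742 of the 1129, against 48.4% of all 8840, with a median of 0.22 score units against -0.02. All 4 FGR libraries lay above all 4 Ctrl libraries in 113 intergenic regions (10%, against 5.14% of all regions), and below them in 24 (2.13% against 4.03%). Regions inside genes had shares close to the intergenic ones, 9.13% above and 2.99% below, and those at gene ends 3.11% and 4.67%. Against Ctrl 3 and 4 alone, all FGR libraries were above in 203 intergenic regions (18%, against 11.1% of all) and below in 69 (6.11% against 10.6%). Inside genes the shares were then 16.5% above and 8.36% below, and at gene ends 8.37% and 12%.

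The first called region (chr8:128035657-128036182, 526 bp) lay 322409 bp from the nearest end of Nrp1, which encodes the semaphorin and VEGF co-receptor neuropilin-1. Its percentile was 72.6, 86.3, 90.2 and 84.5 in FGR 1 to 4, against 16.4, 11.1, 16.8 and 39.3 in Ctrl 1 to 4. The means were 83.4 ± 2.83 in FGR and 20.9 ± 6.08 in Ctrl (SD, n = 2 pairs), and the score difference was 1.86 ± 0.375 (SE, limma, Benjamini-Hochberg adjusted p = 0.00728). The groups were far apart, with Ctrl 4 the nearest to FGR. The summit pileup was 41, 47, 58 and 57 reads in FGR and 28, 16, 29 and 38 in Ctrl, also without overlap.

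A second (chr17:10326514-10327104, 591 bp) lay 3103 bp from Gm46608 and 1912 bp from the non-coding gene 1700110C19Rik. Its percentile was 81.3, 66.0, 85.4 and 65.9 in FGR, against 0.877, 3.37, 36.2 and 19.9 in Ctrl, where Ctrl 1 and 2 were lowest. The score difference was 2.04 ± 0.409 (SE, limma, Benjamini-Hochberg adjusted p = 0.00728). It is 1 of 3 constitutive intergenic regions within 9059 bp there.

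The third called region (chr5:59996515-59997167, 653 bp) was the most isolated of all 1129, with the nearest protein-coding gene end, that of G6pd2, 1811676 bp away. Its percentile was 91.6, 90.4, 87.5 and 96.3 in FGR, against 61.3, 18.1, 44.2 and 40.1 in Ctrl. The score difference was 1.66 ± 0.340 (SE, limma, Benjamini-Hochberg adjusted p = 0.00728). The other called region (chr2:90649849-90650448, 600 bp) lay 26767 bp from Nup160, a gene of the nuclear pore, at 46.8, 90.4, 57.6 and 76.8 in FGR, against 36.5, 0.645, 7.53 and 12.9 in Ctrl. Here the score difference was 1.89 ± 0.422 (SE, limma, Benjamini-Hochberg adjusted p = 0.0254), and FGR 1 and Ctrl 1 were the nearest libraries. All 4 lost the call without FGR 4 (limma, Benjamini-Hochberg adjusted p = 0.0590 to 0.109), without Ctrl 1 (0.0629 to 0.240), without Ctrl 4 (0.0630 to 0.0976), without Ctrl 1 and 2 together (0.302 to 0.417), or ranked by the authors' fold (0.0736 to 0.237), with the difference still positive. Without FGR 3 the Nrp1 and Nup160 regions also lost it (both 0.102), and without Ctrl 3 the G6pd2 (0.0608) and Nup160 (0.104) regions. The Nup160 region lost it besides without FGR 2 (0.0508), without Ctrl 2 (0.126) and with 1 peak per library in a region (0.0518). Of 18 other settings, it was called in 5, and each of the first 3 in 10.

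The region by Siglech, a lectin gene expressed by microglia, came close to the threshold (chr7:55784378-55785150, 4930 bp from the gene). It was among the strongest shared regions in FGR, at 96.4, 96.5, 98.6 and 98.0, against 75.8, 76.6, 75.7 and 80.4 in Ctrl. Within each group the libraries were close to each other, with means of 97.4 ± 0.196 in FGR and 77.1 ± 1.96 in Ctrl (SD, n = 2 pairs). The score difference was 1.22 ± 0.289 (SE, limma, Benjamini-Hochberg adjusted p = 0.0563), so it was not called. The call depends on the setting: it passed in 6 of 19 other settings, among them 8 separate libraries (limma, Benjamini-Hochberg adjusted p = 0.0112), the block on replicate pairs (0.0440), without FGR 1 (0.0183) and without FGR 2 (0.0243). It did not pass without FGR 3, FGR 4 or any 1 Ctrl library (limma, Benjamini-Hochberg adjusted p = 0.0745 to 0.240). Nor did it pass without Ctrl 1 and 2 together (0.319), ranked by the authors' fold (0.296) or on untransformed percentiles (0.446). The pileup at the summit was 76, 72, 93 and 90 reads in FGR and 54, 36, 61 and 68 in Ctrl.

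**Figure D5:**
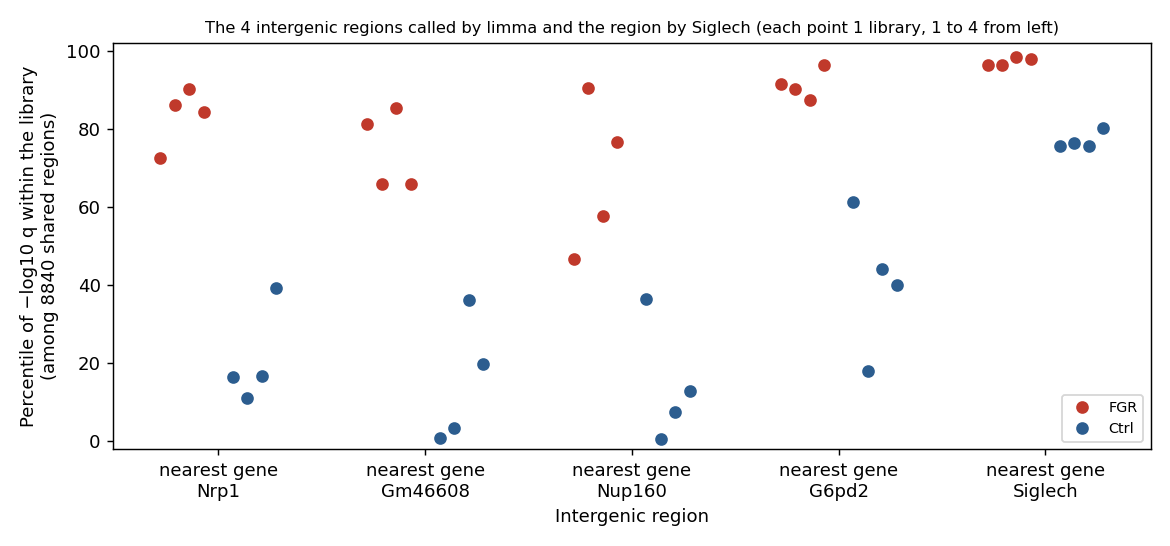
Percentile of −log10 q among the 8840 shared regions (y axis) in each library for the 4 constitutive intergenic regions called by limma and for the region by Siglech, named by the nearest protein-coding gene (x axis). Each point is 1 library, with FGR 1 to 4 to the left of Ctrl 1 to 4. No FGR point overlaps a Ctrl point of the same region, and the Siglech groups lie at 96.4 to 98.6 in FGR and 75.7 to 80.4 in Ctrl.

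None of the regions was called lower in FGR. The smallest p among those lower belonged to a region 6429 bp from the matrix metalloproteinase gene Mmp14 and 359 bp from the snRNA gene Gm24424 (chr14:54448885-54449599). Its percentile was 0.492, 3.62, 0.990 and 4.58 in FGR, against 68.3, 62.4, 48.9 and 3.09 in Ctrl, so Ctrl 4 lay with the FGR libraries (limma score difference -1.82 ± 0.494 SE, Benjamini-Hochberg adjusted p = 0.0938). The next was a region 262548 bp from Mc2r, among the strongest of all, at 99.1, 99.3, 87.6 and 97.0 in FGR and 99.2, 99.7, 99.9 and 99.9 in Ctrl (limma, Benjamini-Hochberg adjusted p = 0.0943). After it came a region 186811 bp from 9530057J20Rik (chr8:20122141-20122747), at 15.7, 16.5, 38.0 and 22.6 in FGR and 61.9, 93.4, 69.1 and 25.3 in Ctrl, with Ctrl 4 again among the FGR values (limma, Benjamini-Hochberg adjusted p = 0.194).

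Listed microglial genes were the nearest gene of a number of the regions. Genes for microglial transcription factors (25 listed) were the nearest to 23 regions, or 2.04%, against 1.28% of the intergenic regions called in fewer libraries. AP-1 and immediate early genes (24 listed), which respond quickly to stimulation, were nearest to 29 (2.57% against 0.639%), and inflammatory and NF-κB genes (24 listed) to 13 (1.15% against 0.476%). Homeostatic microglia genes (25 listed) were nearest to 6 (0.531% against 0.326%), and lipid and disease-associated genes (19 listed) to 7 (0.620% against 0.232%). TGF-beta signalling genes (14 listed) were nearest to 3 (0.266%, against 0.407%). Markers of neurons, astrocytes and lymphocytes were nearest to 0, against 0.0815%, 0.125% and 0.0251% of the intergenic regions called in fewer libraries. Those of oligodendrocytes (Mog), endothelial and mural cells (Cdh5), and monocytes and border macrophages (Ly6c2) were nearest to 1 each. That is 0.0886%, against 0.0564%, 0.132% and 0.0501%. With shares this low, counts of 0 or 1 cannot show that a cell type is absent. At gene ends in all 8 libraries, 14 of 25 microglial transcription factor genes and 10 of 25 homeostatic genes had a region. So had 18 of 24 AP-1 and immediate early, 15 of 24 inflammatory, 10 of 14 TGF-beta and 7 of 19 lipid and disease-associated genes. It was 0 of 13 for neuronal, 1 of 9 for astrocytic and 1 of 9 for oligodendrocyte genes. It was 1 of 8 for endothelial and mural, 0 of 8 for lymphocyte and 0 of 9 for monocyte and border macrophage genes. The share over all protein-coding genes was not counted. These counts were not tested.

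No region of these lists passed the limma test in either direction. The median percentile of the 23 by microglial transcription factor genes was 55.4 ± 1.18 in FGR and 41.7 ± 5.69 in Ctrl (SD, n = 2 pairs), with a positive score difference in 18 of 23, against 742 of all 1129. The 29 by AP-1 and immediate early genes had 54.4 ± 4.70 in FGR and 43.1 ± 2.17 in Ctrl, with 18 positive. The 13 by inflammatory genes went the other way, at 47.6 ± 5.42 in FGR and 59.4 ± 3.02 in Ctrl, with 6 positive. The 6 by homeostatic genes had medians of 52.4, 60.5, 53.1 and 55.7 in FGR 1 to 4, against 43.3, 47.6, 72.5 and 69.0 in Ctrl 1 to 4, so that Ctrl 1 and 2 lay below every FGR library and Ctrl 3 and 4 above every one. All FGR lay above all Ctrl libraries in 2 of the 23 transcription factor regions, 1 of the 29 AP-1 regions, 1 of the 6 homeostatic regions (that by Siglech) and 0 of the 13 inflammatory regions, beside 113 of the 1129 and 5.14% of all 8840.

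Sall1, a transcription factor needed for microglial identity, had 3 of the regions within 12248 bp, 348473 to 359939 bp from its nearest end. The first (chr8:89392635-89393412) was at 85.4, 90.5, 85.5 and 82.3 in FGR, against 37.4, 53.6, 87.4 and 23.1 in Ctrl, where Ctrl 3 lay with FGR. The second (chr8:89396413-89397095) was at 60.9, 84.3, 61.9 and 68.2 in FGR and 74.6, 57.2, 61.2 and 52.1 in Ctrl. The third (chr8:89404101-89404882) was at 85.3, 93.9, 80.7 and 91.1 in FGR and 70.0, 68.6, 87.2 and 89.1 in Ctrl. None passed the limma test (Benjamini-Hochberg adjusted p = 0.179, 0.874 and 0.726).

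Of the transcription factor genes, Klf4 had 4 regions, Sall1 and Zeb2 3 each, and Batf3, Cebpb, Maf and Runx1 2 each. The strongest was a region 63325 bp from Cebpb, a regulator of inflammatory genes (chr2:167753757-167754465), at 98.7, 98.3, 98.6 and 96.5 in FGR and 79.3, 96.0, 99.0 and 97.0 in Ctrl. A region 22751 bp from Klf2, a factor that dampens myeloid activation (chr8:72295439-72296311), was at 93.5, 95.3, 93.3 and 97.7 in FGR and 81.9, 75.9, 92.7 and 86.0 in Ctrl, without overlap but not called. Among immediate early genes, Fos, Atf3 and Ier5 had 3 regions each. The strongest of Fos, the partner of Jun in AP-1, lay 18027 bp away (chr12:85454784-85455863), at 92.3, 96.8, 94.4 and 95.1 in FGR and 99.0, 99.7, 93.5 and 97.2 in Ctrl. A region 7025 bp from the nuclear receptor gene Nr4a1 (chr15:101246117-101246877) was at 87.6, 93.7, 88.8 and 93.1 in FGR and 68.5, 82.4, 82.2 and 80.0 in Ctrl, again separate but not called.

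The regions were dispersed along the genome with some local groups. They had 904 different nearest protein-coding genes, of which 740 had 1 region and 49 had 3 or more. Marcks, which encodes an actin-binding substrate of protein kinase C, had the most, with 6 regions between 51046 and 203485 bp away on chromosome 10. The first of these (chr10:37189972-37190525) was at 52.3, 59.5, 66.3 and 82.3 in FGR and 57.8, 7.17, 25.1 and 3.01 in Ctrl, and the last (chr10:37342411-37343206) was low in both groups, at 0.967, 11.7, 9.10 and 21.5 in FGR and 8.04, 13.1, 4.86 and 9.25 in Ctrl. Joining regions at gaps of at most 12500 bp gave 91 clusters with 199 of the 1129 regions (17.6%), and 14 clusters had 3 or more.

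The largest clusters held 4 regions each, among them those by Eed, a Polycomb gene (20469 bp), and Socs3, an inhibitor of cytokine signalling (24312 bp). Members of a cluster did not rank alike. In the Eed cluster the third region (chr7:90033834-90034568) was at 92.8, 95.2, 89.4 and 98.1 in FGR and 80.8, 75, 71.7 and 73.7 in Ctrl. The second (chr7:90022971-90023822), was at 13.8, 33.99, 19.4 and 33.0 in FGR and 44.8, 51.1, 6.06 and 10.3 in Ctrl. In the Socs3 cluster the percentiles of all 4 regions overlapped between the groups, and none lay above 53.7 in an FGR library.

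The median distance to the nearest protein-coding gene end was 17695 bp, with quartiles at 6832 and 44805 bp, and width ran from 464 to 3621 bp. At the 1 kb threshold, the regions just outside were 1001 bp from 1810055G02Rik, 1014 bp from Junb and 1018 bp from Hs1bp3. Just within it, and so not included, were regions 992 bp from Btnl10, 990 bp from Midn and 972 bp from Ier2. The percentile of the Junb region (chr8:84979762-84980256) was 27.5, 13.4, 4.59 and 20.6 in FGR and 30.6, 54.9, 28.2 and 8.07 in Ctrl. That of the Ier2 region (chr8:84663824-84664351) was 10.02, 35.6, 3.27 and 31.5 in FGR and 15.3, 25.6, 46.0 and 59.0 in Ctrl.

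Some of the strongest regions lay in stretches of raised background. The 10 strongest by median rank within the full lists were nearest to Ly6c2, Pex2, Lrrc4c (2 regions), Mid1, Mc2r, Wnt7b, Rpusd4, Ptpdc1 and Glis2. The 2 by Lrrc4c (chr2:98662142-98662957 and chr2:98666249-98667509), both over 1 Mb from the gene, were near the top of every library, at 99.7 or more in FGR and 99.9 or more in Ctrl, and their local background was 4.83 and 4.91 times the lowest of the library. The highest local background, 28.2 and 27.0 times the lowest, was at the ribosomal RNA sequences Rn18s-rs5 and AY036118 on chromosome 17 (chr17:39843127-39846747 and chr17:39847540-39848786). Ribosomal and satellite repeats occur in many copies of which the assembly holds few, and any filtering of such stretches was not given in the sources used here. The Junb region had the next highest, at 7.19 times.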

How the data were processed

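The data are 8 narrowPeak lists, 1 per library, of ATAC-seq on hippocampal microglia, 4 from FGR and 4 from Ctrl mice. Build mm10 and the tools MACS2 2.2.7.1, Bowtie2 2.4.5, DiffBind 3.12.0, Trim Galore 0.6.5 and SAMtools 1.3.1 come from the submitters' processing notes, without roles or settings. Whether reads were shifted, duplicates removed or blacklisted stretches filtered was not given in the sources used here. In each deposited list the authors give a fold (ratio of summit pileup to local background), −log10 p and −log10 q values, a summit offset in bp and a display score. The deposited score was not used. The smallest deposited −log10 q was 1.31. Peaks were called separately per library.

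The regions and gene lists were chosen with earlier results of these data known. Gene positions came from a RefSeq table of GRCm38.p6 (21887 protein-coding and 28056 other genes), start windows and microRNAs from RefSeq tables of the same build. No genome sequence was used here, so the planned motif search around summits was replaced by start windows. Solving the Poisson tail that links the authors' deposited fold and −log10 p gave a whole-number pileup and a local background for 100% of peaks (tolerance 0.001 in −log10 p). Background coverage is the lowest local background of a list. Total reads of a library were not used here. Intervals cover counting error only.

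For the test, ranks of −log10 q over the 8840 regions were turned into normal scores, replicates 1 and 3, and 2 and 4, were averaged, and limma 3.58.1 (R 4.3.3) with a trend compared FGR with Ctrl, with Benjamini-Hochberg adjustment over all 8840 and a threshold of 0.05. limma draws the variance of each region toward a trend over all regions. With n = 2 pairs per group, an SE or p-value thus rests mostly on the variance of other regions. Score differences are FGR minus Ctrl in standard deviations of the normal score. The averaging follows the summits shared between FGR libraries. Ctrl pairs showed no such excess of shared summits. Simulated data were used to test the merging of peaks and the limma step only, with a deviation shared within the pairs of both groups. Scripts ran in Python 3.11.15 with scipy 1.17.1, pandas 2.3.3, numpy 2.4.6 and matplotlib 3.10.9.

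Regions were named by a rule. It takes the 10 strongest by median rank, up to 25 nearest to genes of 3 lists (microglial transcription factors, homeostatic microglia, AP-1 and immediate early), 3 on each side of the 1 kb threshold, up to 6 per direction past the limma threshold or else the 3 with smallest p, the 3 largest clusters (1 of which is not reported here), the 3 farthest from a gene, the 5 strongest at a non-coding gene and the 3 with the highest local background. The regions at microRNAs, small RNA genes, Gm45805, Mir22hg, Snhg8, 1300002E11Rik and Marcks were chosen after their values were seen.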

Additional observations from a re-analysis of the deposited data

Results flagged for a closer look

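In 9 of 166 groups of 4 libraries examined (5.42%), 1 library lay far from the other 3 in its percentile among the shared regions, which chance alone does in about 1 group in 20. In FGR, the region by Socs3 (chr11:117946595-117947208) was high in FGR 4 at 48.7 (others 12.53 to 18.3), and that by Atf3 (chr1:191223807-191225358) in FGR 3 at 78.6 (others 65.7 to 66.7). The region by Mir142, nearest to Tspoap1, was high in FGR 2 at 80.1 (others 53.5 to 56.7), and 1 region by Lrrc4c was low in FGR 4 at 99.7 (others all 99.9). In Ctrl, the region by Cebpb (chr2:167753757-167754465) was low in Ctrl 1 at 79.3 (others 96.0 to 99.0) and that by Zfp36l2 (chr17:84056882-84057810) in Ctrl 4 at 57.6 (others 87.7 to 93.0). Low in Ctrl 2 were regions by Klf4 (chr4:55650815-55651740) at 39.8 (others 69.0 to 74.3) and by Eed (chr7:90039449-90039923) at 0.707 (others 22.7 to 26.9), and the region at the Mir17 cluster was high there at 24.98 (others 13.8 to 15.6).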

How the results depend on the processing

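The difference of the class kept its direction in all 14 other settings that give one, between 7.04 percentile points (ranked by the authors' fold) and 10.4, and by 8.09 to 10.4 with any 1 library left out. The count of called regions did not hold. With all 8 libraries as separate samples limma called 24 intergenic regions higher and 1 lower (56 and 16 of all). The replicate numbers do not pair FGR with Ctrl libraries (deviations of same-numbered libraries correlated at -0.014 to -0.003). The block on replicate pairs gave 5 higher, and 8 libraries with a replicate block 36 higher and 1 lower (95 and 26 of all). No region was called, 0 of either direction, when ranked by fold, on untransformed percentiles, without Ctrl 1 and 2, or with peaks of −log10 q of at least 5. With 1 library left out the calls ran from 0 to 7 higher and 0 to 1 lower (0 to 15 and 0 to 6 of all). With 1 peak per library in a region 3 were called, all intergenic. In settings chosen after seeing the data, ranks over the intergenic regions alone gave 2, none of the 4 among them, with 65 higher and 64 lower at unadjusted p under 0.05, and 8 libraries without Ctrl 1 and 2 gave 5 (8 higher and 1 lower of all). The 4 called regions stayed higher in FGR in every setting that kept them, and no difference named changed sign.

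The number of regions was 650 at −log10 q of at least 5, 657 with lists of equal length, 2153 without Ctrl 1 and 2, and 1134 to 1841 with 1 library left out, the most without Ctrl 2. The share by a non-coding gene end was then 19.6% without Ctrl 1 and 2, and 20.2% to 23.4% with 1 left out. Over 5 kb from gene ends the median distance was 24103 bp. Gaps of at most 5 kb gave 39 clusters. The planned sequence features in windows around summits were not run, since they need a genome. The depth of these lists shows large differences in rank only, and a region missed in 1 library counts as absent.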
